A study of Mus musculus with 6 samples.

Results

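The genes described here are 54 genes of mitosis: the cyclins and Cdk1 that start it, the kinases that drive it, the kinesins and kinetochore proteins that move chromosomes, the checkpoint that times it, and the condensins and cytokinesis proteins that shape its end. They were taken by name from the 55421 genes of a poly(A) RNA-seq table of mouse B cells, and all 54 were found there and passed the expression minimum of the tests. The cells were splenic B cells cultured for 24 h with 5 μg/ml LPS, a Toll-like receptor agonist, and 5 ng/ml IL-4, a cytokine made by helper T cells. The 3 WT libraries came from mice with CD21-cre and no floxed Hnrnpl, and the 3 hnRNPL-deficient libraries from mice that carried hnRNPL F/F together with CD21-cre, so that WT here means Cre-positive with intact Hnrnpl. Per the study's methods, both groups also carried the Rosa mT/mG reporter, and GFP+ cells that had seen Cre were sorted. All mice were on the C57BL/6J background. For the study's experiments in general, males and females older than 6 weeks were used by availability. The methods give no sex for single libraries. Per the study, CD21-cre acts mostly in peripheral B cells, though it can excise in other tissues during development. The libraries of a group are described by the study as biological replicates, and the comparison asks how loss of the RNA-binding protein hnRNPL altered transcripts in newly activated B cells.

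A resting B cell stimulated with LPS and IL-4 grows, enters S phase and then divides. Most mitotic genes are silent in resting cells and are transcribed from late S phase into G2 and M, first through MuvB complexes that contain B-Myb, the product of Mybl2, and then through FoxM1. Entry into mitosis follows when cyclin B-Cdk1 is freed of the phosphates that Wee1 places and the Cdc25 phosphatases remove. In bulk RNA, fewer cells in G2 and M and less mitotic RNA in each such cell cannot be told apart.

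Loss of Hnrnpl was clear in every library. The gene (chr7:28808541-28822266 in GRCm38, plus strand, GENCODE vM21) had normalized counts of 24371, 25579.7 and 24174 in WT replicates 1, 2 and 3 and of 2178, 1518 and 1297 in hnRNPL-deficient replicates 1, 2 and 3, or 6.74% of the WT mean. A normalized count is the number of reads on a gene divided by a scaling factor for the library's depth. Each library held 40395186 to 75180749 reads on genes, and WT replicate 1 and hnRNPL-deficient replicate 3 were the shallowest of their groups. The least abundant member had 155 reads in the shallowest library, and the part of depth in the results below was not tested. The 6 B cell markers were abundant in all libraries, with a summed normalized count of 274249 to 350783 in WT and 266462 to 312659 in hnRNPL-deficient cells. The defining markers of T cells, NK cells and granulocytes were each below 10 normalized counts in every library. The 5 macrophage and monocyte markers summed to 259.955 to 331 in WT and 1239 to 1382 in hnRNPL-deficient cells, almost wholly through Adgre1, while Lyz2, Cd14 and Csf1r were at or near 0 everywhere. The 6 erythroid markers summed to 17.6 to 38.3 and 55.0 to 84.8, of which 4 genes were below 10 in every library. The part of these markers in the results below was not tested.

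The 54 mitotic transcripts were lower on average in hnRNPL-deficient B cells, most of them by a modest amount that did not pass the test. Of the 54, 51 (94.4%) had a lower mean, against 52.7% of the 17640 genes tested, and their median log2 fold change was -0.41, against -0.03 over all tested genes. By limma on log2(normalized count + 1), with Benjamini-Hochberg adjustment over all tested genes, 6 members fell at an adjusted p under 0.1 and a change of at least 1.5-fold. That is 11.1% of the members, where 4.08% of all tested genes were called lower. No member rose by the same rule, where 7.28% of all tested genes did. At an unadjusted p under 0.05, 15 members were lower and none was higher by limma, against 12.9% of tested genes that were lower at that level. The 6 that fell were Mybl2, Cdc25a, Wee1, Ncaph, Kif15 and Cenpn, with log2 fold changes of -1.17 to -0.64. A count test, edgeR's quasi-likelihood test on reads recovered from the normalized counts, called the same 6 genes. DESeq2 called 9, which were these 6 with Cdk1, Kif4 and Prc1. At an unadjusted p under 0.05 in either direction, edgeR gave 14 members and 4961 of all tested genes. DESeq2 gave 18 members and 4985 genes at that level, and limma 15 and 4830. The plot of fold changes shows that most of the 95% intervals reach past 0.

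**Figure D1:**
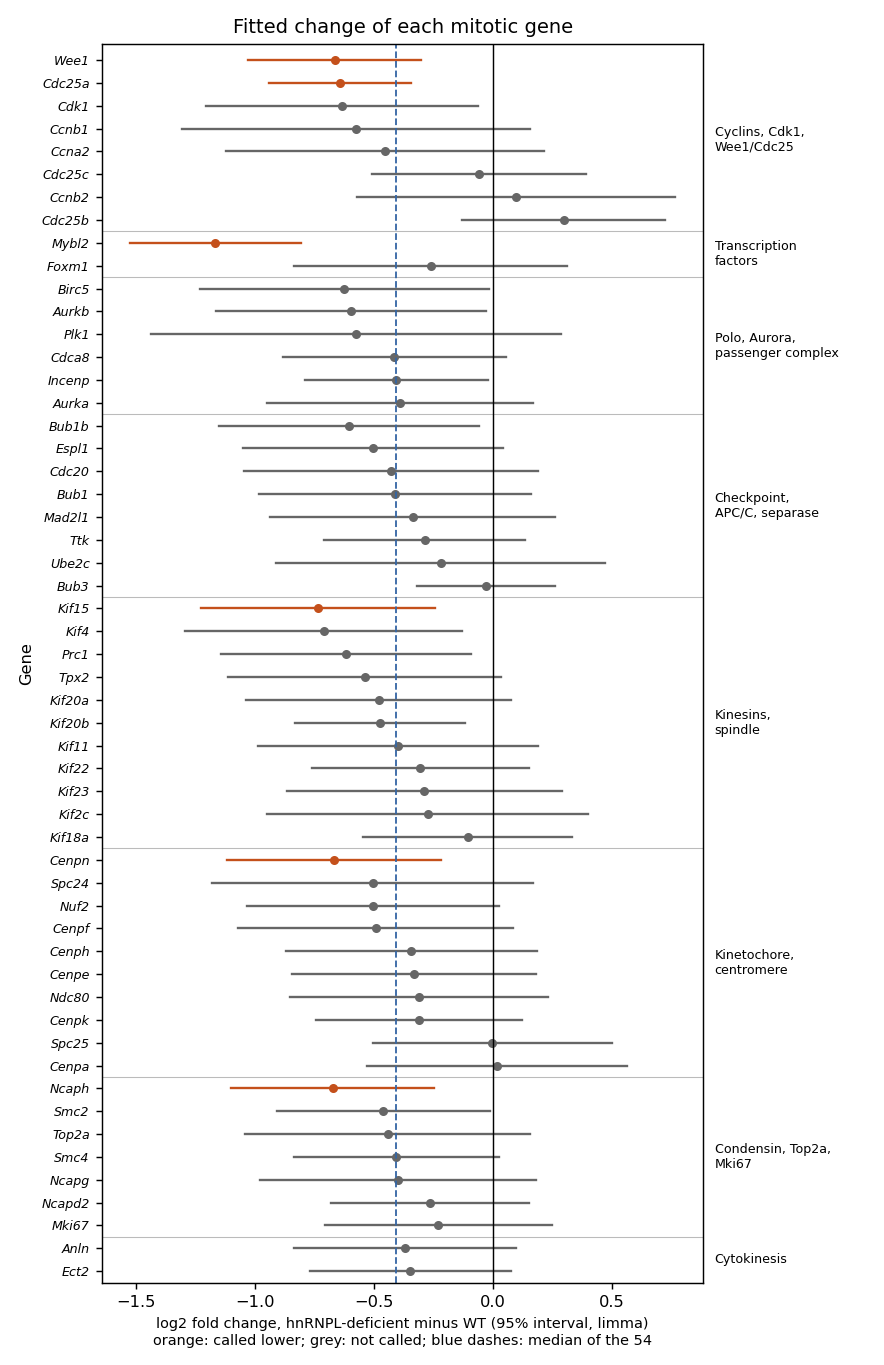
Fitted log2 fold change of each of the 54 mitotic genes (x axis, hnRNPL-deficient minus WT, 3 libraries each) with its 95% interval from limma, by role (y axis). The 6 orange genes passed the test, the blue dashes mark the median of -0.41, and only Ccnb2, Cdc25b and Cenpa lie to the right of 0.

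The members did not vary freely from library to library, and WT replicate 1 and hnRNPL-deficient replicate 3 stood apart from the rest. WT replicate 1 had the highest value of the 6 libraries for 50 of the 54 genes, where it was the highest for 27.5% of all tested genes. Replicate 3 of the hnRNPL-deficient cells had the lowest value for 49, where it was the lowest for 25.6% of all tested genes, and both held for 45 members and for 8.79% of all tested genes. Taken as a median over the 54, the level in WT replicates 1, 2 and 3 was 0.38, -0.18 and -0.18 relative to the WT mean on the log2 scale, and in hnRNPL-deficient replicates 1, 2 and 3 it was -0.09, -0.38 and -0.85. On the linear scale, hnRNPL-deficient replicate 1 stood at 93.7% of the WT mean, replicate 2 at 76.6% and replicate 3 at 55.5%, while WT replicates 2 and 3 both stood at 88.1%. Replicate 1 of the hnRNPL-deficient cells was thus level with or above those WT libraries for most members. It was lower than WT replicate 2 in 17 of the 54 and lower than WT replicate 3 in 16, but lower than WT replicate 1 in 50. Replicate 2 of the hnRNPL-deficient cells was lower than WT replicate 1 in 52 members and lower than WT replicates 2 and 3 in 40 each. Replicate 3 was lower than WT replicates 1, 2 and 3 in 54, 53 and 51 members.

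**Figure D2:**
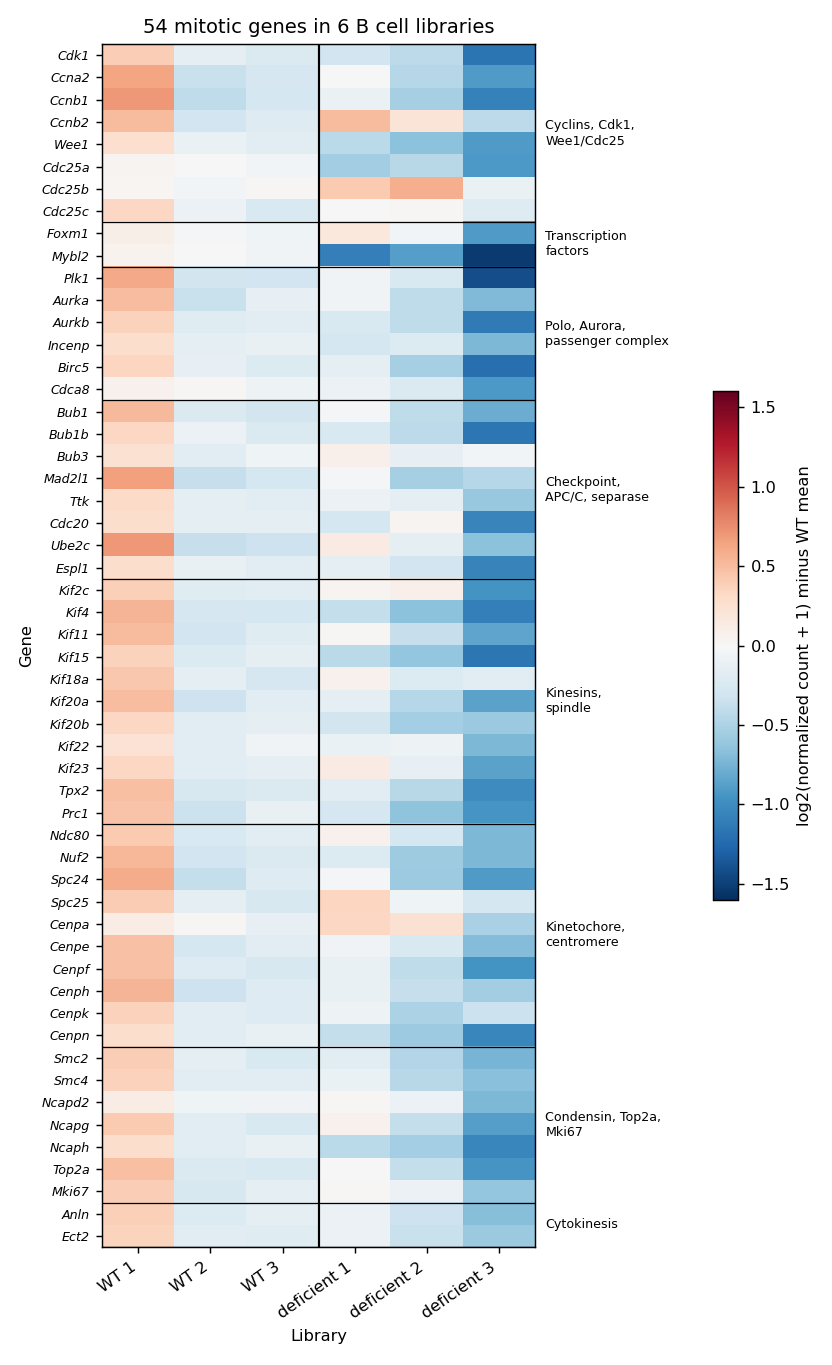
Level of each of the 54 mitotic genes (rows, grouped by role) in each of the 6 libraries (columns) as log2(normalized count + 1) minus the mean of the 3 WT libraries, red for higher and blue for lower. WT replicate 1 was the highest for 50 genes and hnRNPL-deficient replicate 3 the lowest for 49, while Mybl2 and Cdc25a were alike in the 3 WT libraries.

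The gap between WT replicate 1 and the mean of the other two WT libraries had a median of 0.57 over the members on the log2 scale and ran from 0.05 to 1.04, so that it had the same sign in all 54. The gap between hnRNPL-deficient replicate 3 and the mean of the other two of its group had a median of -0.59 and ran from -1.26 to -0.03. Over all tested genes the medians of these gaps were 0.01 and -0.02. Reads on the 54 genes made up 0.346%, 0.240% and 0.253% of all reads on genes in WT replicates 1, 2 and 3, and 0.257%, 0.221% and 0.175% in replicates 1, 2 and 3 without hnRNPL. A list of 18 S phase genes, such as the Mcm helicase subunits and Pcna, followed the members through the libraries, with medians of 0.26, -0.10 and -0.16 in WT and -0.27, -0.42 and -0.87 in hnRNPL-deficient cells. In contrast to the members, the S phase median of every hnRNPL-deficient library lay below that of every WT library. The median of all tested genes stayed within 0.02 of the WT mean in all 6.

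**Figure D3:**
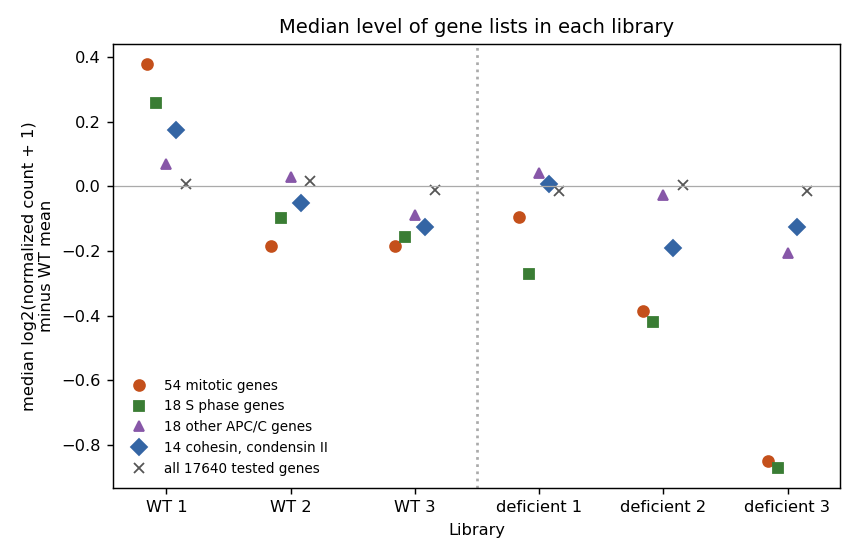
Median over each gene list of log2(normalized count + 1) minus the WT mean (y axis) in each of the 6 libraries (x axis), with 1 point per list and library. The 54 mitotic genes spanned 0.38 to -0.85, the 18 S phase genes followed them closely, and all 17640 tested genes stayed near 0.

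The number of members that passed the test moved with the library left out. Without WT replicate 1, 2 members were called lower (Cdc25a and Mybl2) and the median of the 54 was -0.21. Without hnRNPL-deficient replicate 3, only Mybl2 was called and the median was -0.23. Without WT replicate 3, 3 were called (Wee1, Cdc25a and Mybl2), and without hnRNPL-deficient replicate 1, 10 were called and the median was -0.57. At least 46 of the 54 had a lower mean whichever library was left out. Groups did not overlap for 13 members, all of them lower in the hnRNPL-deficient cells, which is 24.1% of the members where 16.3% of all tested genes were placed that way.

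Mitotic promoters often carry a cell cycle homology region (CHR) just beside the transcription start, the site at which MuvB complexes bind, and E2F sites are typical of genes that switch on earlier, at the start of S phase. RefSeq promoters on GRCm38.p6, each of 300 bases from 250 before to 50 after a start, were given for 44 of the 54 genes and not for Incenp, Cdc25c, Kif20a, Smc4, Wee1, Aurkb, Ccna2, Spc24, Foxm1 and Tpx2. The CHR core TTTGAA, on either strand, was in a promoter of 31 of the 44 genes (70.5%), against 20.2% of all 27025 genes with a promoter. Within 50 bases of the start it was in 28 of the 44 (63.6%), against 5.72% of all genes. An E2F type motif (spelled TTCCCGC or TTCGCGC or TTGCCGC or TTGGCGC, on either strand) was in 13 of the 44 (29.5%), against 10.9% of all genes, and CCAAT, the core of the NF-Y site, was in 33 of the 44 (75%), against 41.1%. A match is a run of letters and not a shown binding site. The 30 bases around the CHR core, itself in capitals, are shown for members that span the range of change, from Kif15 and Cenpn, which fell, to Ccnb2, which did not, each written 5′ to 3′ on the strand that reads TTTGAA.
Kif15 (chr9:122951050-122951079, minus strand): gatggccgcagaTTTGAAtttggcgcccca
Cenpn (chr8:116921719-116921748, minus strand): cgccgaggtgctTTTGAAgccgccaatggc
Cdk1 (chr10:69352910-69352939, minus strand): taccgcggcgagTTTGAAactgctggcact
Plk1 (chr7:122159453-122159482, plus strand): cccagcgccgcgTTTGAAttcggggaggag
Top2a (chr11:99024195-99024224, plus strand): tccctagtttcaTTTGAAcctttatctagc
Ccnb2 (chr9:70421533-70421562, minus strand): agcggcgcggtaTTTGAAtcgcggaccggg

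The E2F type motif, in capitals, is shown in the same way for 3 genes that fell and carry it with room for the window. In Kif15 it lies 1 base from the CHR core shown above, and in Cdc25a the letters TTGGCGC occur on both strands and overlap.
Cdc25a (chr9:109875505-109875534, minus strand): cccctttcctagTTGGCGCcaaacggaatt
Kif15 (chr9:122951043-122951072, minus strand): gcagatttgaatTTGGCGCcccaacggacc
Cenpn (chr8:116921735-116921764, minus strand): tctctgcagcggTTCCCGCcgaggtgcttt

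The median log2 fold change was -0.40 for the 31 genes with a CHR core and -0.41 for the 13 without. It was -0.40 for the 13 genes with an E2F type motif and -0.40 for the 31 without, and -0.40 for the 33 genes with CCAAT and -0.48 for the 11 without. Of the 13 genes with the E2F type motif 4 were called lower (Cdc25a, Kif15, Cenpn and Ncaph), and of the 31 without it 1 was (Mybl2). Of the 31 genes with the CHR core 2 were called lower, and of the 13 without it 3 were. Of the 33 genes with CCAAT 2 were called lower, and of the 11 without it 3 were. These medians and counts are given with no test.

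Levels between genes are compared per kilobase of exon, as normalized counts divided by the length of the gene's merged exons in GENCODE vM21. By that measure the most abundant members in WT cells were Smc4, at 3041 per kb, followed by Mki67 at 2118, Top2a at 2056, Smc2 at 1701 and Ccna2 at 1519. Mybl2 was sixth at 1429.6. The lowest were Cenpa, at 52.3, and Cdc25c, at 52.9. The order depends on the merged length, which counts every annotated exon. Cenpa and Ccnb2 had WT means of 306.5 and 305.5 normalized counts over 5.86 and 1.531 kb, and Ccnb2 stood at 199.6 per kb.

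Among the cyclins, Cdk1 and its switch, Wee1 and Cdc25a fell, though they act on Cdk1 in opposite directions. Wee1 (chr7:110122046-110143286, plus strand), the kinase that keeps Cdk1 phosphorylated and inactive, had normalized counts of 3796, 2947 and 2816 in WT and 2348, 2009 and 1678 in hnRNPL-deficient replicates 1, 2 and 3. Every hnRNPL-deficient value lay below every WT value, with means of 3186 ± 532 in WT against 2011 ± 335 in hnRNPL-deficient cells (SD, n = 3 each). The log2 fold change was -0.66 (95% interval -1.03 to -0.30, limma adjusted p = 0.0326), and without WT replicate 1 or without hnRNPL-deficient replicate 3 it was under 1.5-fold and no longer called. Cdc25a (chr9:109875579-109893895, plus strand), the phosphatase that activates Cdk2 and Cdk1 at S phase and mitotic entry, had 4909, 4797 and 4627 in WT and 3239, 3506 and 2525 in hnRNPL-deficient cells. Its WT libraries were close together, with WT replicate 1 only slightly the highest, and the means were 4778 ± 142 in WT against 3090.2 ± 508 in hnRNPL-deficient cells (SD, n = 3 each). The log2 fold change was -0.64 (95% interval -0.94 to -0.34, limma adjusted p = 0.0178), and it lost its call without hnRNPL-deficient replicate 3.

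Cdc25b, the phosphatase that starts Cdk1 activation at the centrosome, was the member with the highest fold change. Its normalized counts were 533, 506 and 526 in WT and 698, 780.5 and 482 in hnRNPL-deficient cells, so that hnRNPL-deficient replicates 1 and 2 were above all WT libraries and replicate 3 below them. The log2 fold change was 0.30 (95% interval -0.13 to 0.72, limma adjusted p = 0.346). Cdc25c, the third phosphatase, had a log2 fold change of -0.06, and leaving out WT replicate 1 or hnRNPL-deficient replicate 3 turned its sign. The 3 Cdc25 genes therefore spread over 0.94 log2 units.

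Ccna2, the S phase and G2 cyclin and the most abundant member of the group, had 9112, 4597 and 4899 in WT and 5920.4, 4298 and 3143 in hnRNPL-deficient cells. The groups overlapped, with WT replicate 1 near the sum of the other WT libraries, and the log2 fold change of -0.45 (95% interval -1.12 to 0.22) did not pass (limma adjusted p = 0.358). Ccnb2, a mitotic cyclin, had 420.1, 239.5 and 257 in WT and 422, 340.3 and 221 in hnRNPL-deficient cells. Its mean was slightly higher in hnRNPL-deficient cells, at a log2 fold change of 0.10 (95% interval -0.57 to 0.77, limma adjusted p = 0.856), and the sign turned under quantile normalization. Ccnb1, the main mitotic cyclin, had a log2 fold change of -0.57, and Cdk1 of -0.63 (limma adjusted p = 0.145), and neither passed by limma. A processed pseudogene of Ccnb1 is annotated in GENCODE, so its reads may in part have been assigned there.

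Mybl2 showed the largest change of the 54. The gene (chr2:163054687-163084688, plus strand) encodes B-Myb, which binds MuvB and activates late cell cycle genes. Its normalized counts were 6874, 6602 and 6389 in WT and 3111, 3601 and 2289 in hnRNPL-deficient replicates 1, 2 and 3. The 3 WT libraries were nearly equal and all hnRNPL-deficient libraries were far below them, with means of 6622 ± 243 in WT against 3001 ± 663 in hnRNPL-deficient cells (SD, n = 3 each), or 45.3% of WT. The log2 fold change was -1.17 (95% interval -1.53 to -0.81, limma adjusted p = 0.00344), and leaving out any single library gave -1.31 to -0.98, with the call kept in each. Foxm1, the forkhead factor that joins B-Myb at mitotic promoters, had 1032, 950.2 and 919 in WT and 1084, 934 and 515 in hnRNPL-deficient cells. Only hnRNPL-deficient replicate 3 was clearly low, the log2 fold change was -0.26 (95% interval -0.83 to 0.31, limma adjusted p = 0.535), and without that library its sign turned.

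**Figure D4:**
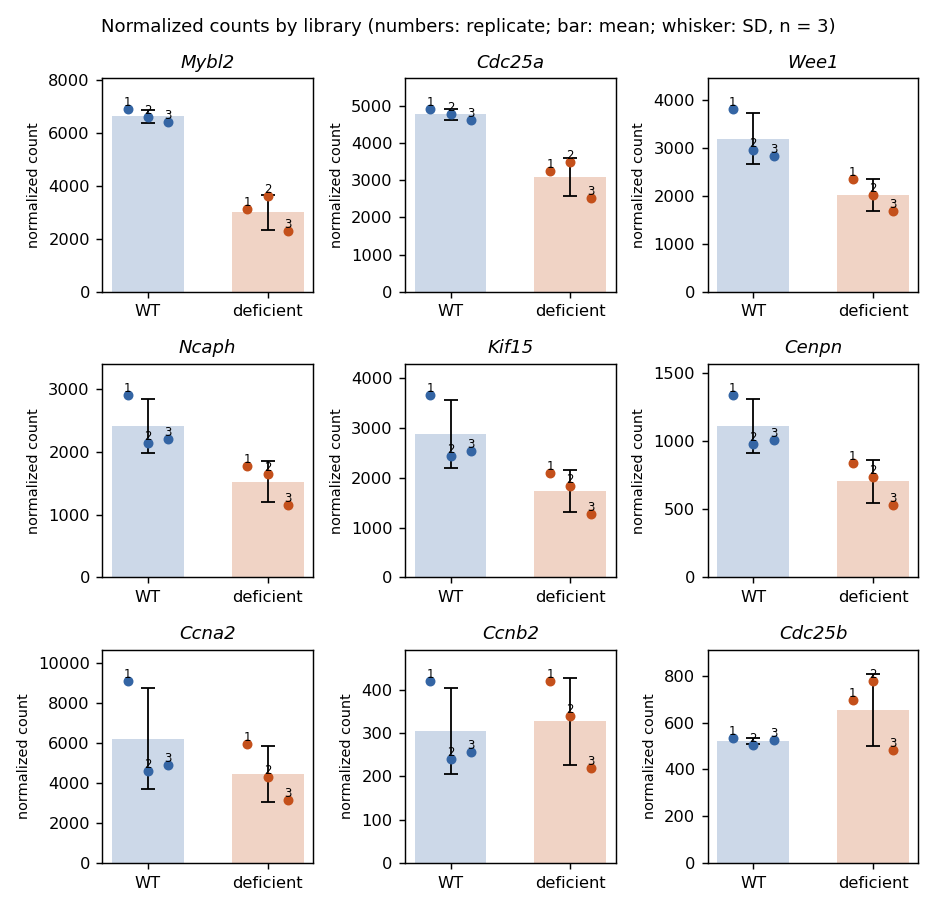
Normalized counts (y axis, from 0) of 9 mitotic genes in WT and hnRNPL-deficient B cells (x axis), with 1 point per library numbered by replicate, bars for the mean and whiskers for the SD (n = 3). The 6 genes that fell have no overlap between groups, whereas Ccna2, Ccnb2 and Cdc25b overlap.

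None of the 6 Polo and Aurora kinase and chromosomal passenger genes passed the test, and all 6 had lower means, with log2 fold changes of -0.62 to -0.39. Incenp, the scaffold that activates Aurora B and the most abundant of the group, had 3853, 2835 and 2921 in WT and 2608, 2724 and 1928 in hnRNPL-deficient cells. The groups did not overlap and the log2 fold change was -0.41 (95% interval -0.79 to -0.02, limma adjusted p = 0.161). Aurkb, the Aurora B kinase that corrects faulty chromosome attachments, had 2019, 1359 and 1383 and 1321, 1175 and 709. Here too the groups were separate, though hnRNPL-deficient replicate 1 lay close under WT replicate 2, and the log2 fold change was -0.60 (95% interval -1.16 to -0.03, limma adjusted p = 0.162). Birc5 (survivin) and Cdca8 (borealin), the other passenger subunits, had -0.62 and -0.42. Plk1, the Polo kinase of mitotic entry and spindle assembly, had -0.58 with a wide 95% interval of -1.44 to 0.28, and Aurka, the Aurora kinase of the spindle poles, had -0.39.

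The 8 checkpoint, APC/C and separase genes all had lower means and none passed. Bub1b, which encodes the checkpoint protein BubR1, had 3181, 2382 and 2158 in WT and 2136, 1903 and 1142 in hnRNPL-deficient cells. The groups were separate by a narrow margin, and the log2 fold change was -0.61 (95% interval -1.15 to -0.06, limma adjusted p = 0.145). Espl1, which encodes separase, the protease that cuts cohesin at anaphase, had 1819.7, 1371 and 1332 and 1349, 1211 and 713, with a log2 fold change of -0.50 (95% interval -1.05 to 0.04, limma adjusted p = 0.214). Bub3, the partner that carries Bub1 and BubR1 to the kinetochore, differed from the rest of the group. Its normalized counts were 8645, 6456 and 6951 in WT and 7744, 6681 and 7051 in hnRNPL-deficient cells, its log2 fold change was -0.03 (95% interval -0.32 to 0.26, limma adjusted p = 0.903), and both equal-total scaling and quantile normalization turned its sign. Of the others, the kinases Bub1 and Ttk had -0.41 and -0.29, the checkpoint effector Mad2l1 -0.34, the APC/C activator Cdc20 -0.43 and the APC/C ubiquitin-conjugating enzyme Ube2c -0.22.

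All 11 kinesins and spindle proteins had lower means, and Kif15 alone fell by the full rule. Kif15 (chr9:122951046-123018733, plus strand), a motor that helps keep spindle poles apart, had 3664, 2442 and 2539.7 in WT and 2103, 1843 and 1273 in hnRNPL-deficient cells. All hnRNPL-deficient values were below all WT values, with means of 2882 ± 679 in WT against 1739.7 ± 424 in hnRNPL-deficient cells (SD, n = 3 each). The log2 fold change was -0.73 (95% interval -1.22 to -0.24, limma adjusted p = 0.0627), and the call was lost without WT replicate 1, without WT replicate 3 or without hnRNPL-deficient replicate 3 (adjusted p of 0.0586 to 0.144 over the 6 libraries left out in turn). Kif20b, a kinesin of late cytokinesis, had 3776, 2661 and 2716 and 2465, 2069 and 1992. Its adjusted p of 0.0893 by limma was under 0.1, and its log2 fold change of -0.48 (95% interval -0.83 to -0.12) was under 1.5-fold. Tpx2, which nucleates spindle microtubules and activates Aurora A, was the most abundant of the group, with 4982, 2992 and 3055 and 3183, 2619 and 1779, overlapping groups and a log2 fold change of -0.54 (95% interval -1.11 to 0.03, limma adjusted p = 0.207).

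The other kinesins ranged from Kif4, a chromosome arm motor (-0.71, limma adjusted p = 0.113), to Kif18a, which dampens chromosome movement at the plate (-0.11). Kif11, the motor that separates the spindle poles, had -0.40. Prc1, the bundler of the central spindle, had -0.62, and the midzone kinesins Kif20a and Kif23 had -0.48 and -0.29. The chromokinesin Kif22 had -0.30 and the microtubule depolymerase Kif2c -0.28. A processed pseudogene of Kif4 is annotated, so the count of Kif4 is uncertain to that extent.

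Of the 10 kinetochore and centromere genes, 9 had lower means and Cenpn fell. Cenpn (chr8:116921730-116941507, plus strand), a subunit of the constitutive centromere network that reads CENP-A nucleosomes, had 1342, 983 and 1012 in WT and 845, 735 and 536 in hnRNPL-deficient cells. The groups were separate, with means of 1112 ± 199 in WT against 705 ± 157 in hnRNPL-deficient cells (SD, n = 3 each). Its log2 fold change was -0.67 (95% interval -1.12 to -0.22, limma adjusted p = 0.0635), and the call held in only 1 of the 6 fits that each left out a library, the one without hnRNPL-deficient replicate 1. The 2 other members of that network had -0.34 (Cenph) and -0.31 (Cenpk), neither past the test.

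The 4 subunits of the Ndc80 complex, which grips spindle microtubules, gave unequal values. Nuf2 had 2141, 1198 and 1266 in WT and 1275, 996 and 898 in hnRNPL-deficient cells, with overlapping groups and a log2 fold change of -0.50 (95% interval -1.03 to 0.03, limma adjusted p = 0.203). Spc24 had -0.51 and Ndc80 -0.31. Spc25 had 884, 600.0 and 561 and 844, 637 and 549.6, a log2 fold change of 0.00 (95% interval -0.50 to 0.50) whose sign turned under equal-total scaling. Cenpa, the centromeric histone H3 variant, had 331, 310.4 and 278 in WT and 385, 362 and 212 in hnRNPL-deficient cells. Replicates 1 and 2 of the hnRNPL-deficient cells exceeded all WT libraries and replicate 3 was below them, which gave a log2 fold change of 0.02 (95% interval -0.53 to 0.56, limma adjusted p = 0.972), with the sign turned by quantile normalization. Cenpe, the kinetochore kinesin and the most abundant of the group by normalized count, had 2855, 1707 and 1822 and 1987, 1751 and 1282, overlapping groups and a log2 fold change of -0.33 (95% interval -0.84 to 0.18, limma adjusted p = 0.382). Cenpf, a large protein of the outer kinetochore, had -0.49.

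The 7 condensin, topoisomerase II and chromosome surface genes all had lower means, and Ncaph fell. Ncaph (chr2:127103809-127133954, minus strand), the kleisin that closes the condensin I ring, had 2906, 2135 and 2201 in WT and 1776, 1639.7 and 1154 in hnRNPL-deficient cells. The groups did not overlap, and the means were 2414 ± 427 in WT against 1523 ± 327 in hnRNPL-deficient cells (SD, n = 3 each). The log2 fold change was -0.67 (95% interval -1.10 to -0.25, limma adjusted p = 0.0525), and the call was lost without WT replicate 1, without WT replicate 3 or without hnRNPL-deficient replicate 3. The other condensin I subunits, Ncapd2 and Ncapg, had -0.26 and -0.40. Smc2, an ATPase of both condensins, had 12029, 8187 and 7735 and 8159, 6572 and 5452, with a log2 fold change of -0.46 (95% interval -0.91 to -0.01, limma adjusted p = 0.172), and its partner Smc4 had -0.41. Mki67, which coats mitotic chromosomes and encodes the Ki-67 proliferation marker, had 27477, 17566 and 18889.7 in WT and 21138, 19587 and 13654 in hnRNPL-deficient cells. Its groups overlapped, since hnRNPL-deficient replicates 1 and 2 were above WT replicates 2 and 3, and the log2 fold change was -0.23 (95% interval -0.70 to 0.25, limma adjusted p = 0.514). Top2a, the topoisomerase that untangles sister chromatids, had -0.44.

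The cytokinesis genes had lower means and did not pass. Ect2, the exchange factor that activates RhoA at the division plane, had 2229, 1547 and 1513 in WT and 1626, 1354 and 1150.0 in hnRNPL-deficient cells, with overlapping groups and a log2 fold change of -0.35 (95% interval -0.77 to 0.07, limma adjusted p = 0.267). Anln, the scaffold of the contractile ring, had 1401, 922 and 966 and 1008, 855 and 672, with a log2 fold change of -0.37 (95% interval -0.83 to 0.10, limma adjusted p = 0.284).

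Since the 54 genes moved together from library to library, each was also expressed relative to the median of the 54 in its own library, a measure added after the values were seen. On that relative log2 scale, 6 members were lower in all hnRNPL-deficient libraries than in all WT libraries (Mybl2, Kif15, Kif4, Ncaph, Cenpn and Cdk1), where 1.05% of all tested genes were. Another 14 were higher without overlap, where 33.4% of all tested genes were. The reference itself was lower in the hnRNPL-deficient cells, which makes the lower share of all tested genes small and the higher share large. The members are centred on that reference by construction, so neither count can be read as an enrichment over its share. Mybl2 had relative levels of 1.77, 2.30 and 2.30 in WT and 1.23, 1.64 and 1.51 in hnRNPL-deficient cells, a difference of -0.67. Kif15 had 0.87, 0.87 and 0.97 in WT and 0.66, 0.68 and 0.66 in hnRNPL-deficient cells, a difference of -0.23 that was even across the replicates of each group. Wee1 and Cdc25a, which fell in the main test, overlapped on this scale, with differences of -0.16 and -0.14.

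At the other end, Cdc25b had relative levels of -1.91, -1.40 and -1.30 in WT and -0.93, -0.56 and -0.74 in hnRNPL-deficient cells, a difference of 0.80, and Ccnb2 had -2.26, -2.48 and -2.33 and -1.65, -1.76 and -1.86, a difference of 0.60. For Cenpa, Spc25 and Bub3 the differences were 0.52, 0.50 and 0.47, again with no overlap. Relative to the median of the 54, each of these 5 genes was thus higher in the 3 hnRNPL-deficient libraries than in any WT library, and none passed the test on its own normalized counts. The placement is not particular to them, as 33.4% of all tested genes were higher without overlap on this scale. A gene that does not change also rises on it, and Bub3 and Spc25 had log2 fold changes of -0.03 and -0.003 on their own counts.

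**Figure D5:**
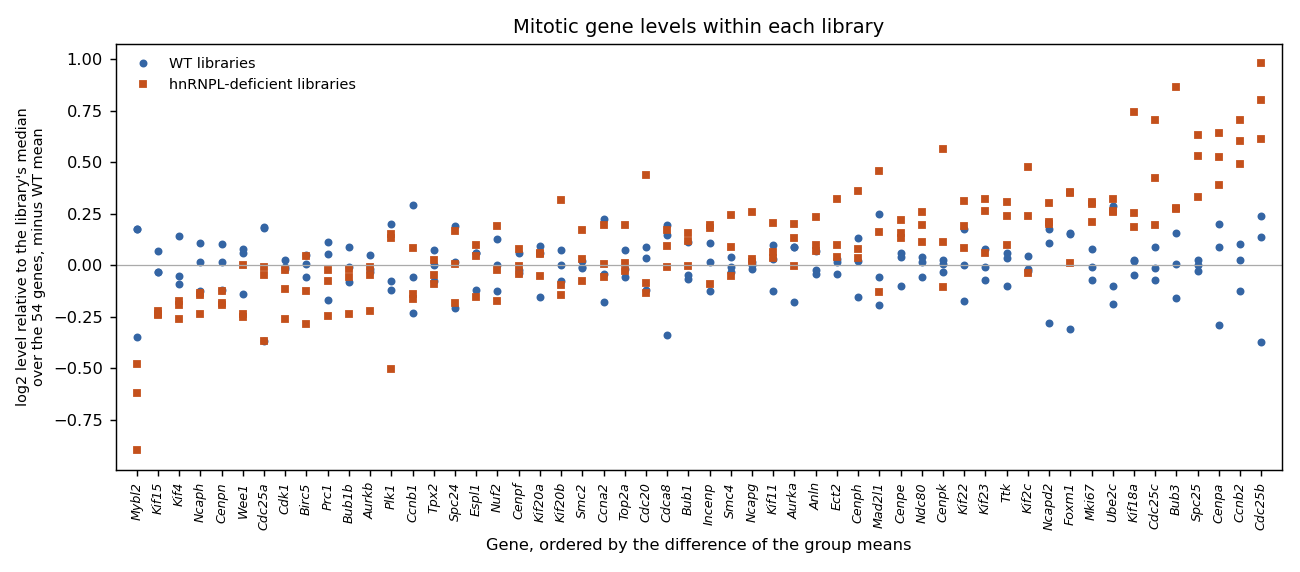
Level of each of the 54 genes relative to the median of the 54 in the same library, minus the WT mean, on the log2 scale (y axis), with 1 point per library and genes ordered by the difference of group means (x axis). Mybl2 lies lowest at a difference of -0.67 and Cdc25b highest at 0.80, and most genes lie between with overlapping groups.

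Beyond the 54, the other genes of mitosis were read from 6 further lists with 112 genes, of which 8 were called lower and 3 higher, with a median log2 fold change of -0.20. These counts and those of each list that follows stand beside the 4.08% of all tested genes called lower, the 7.28% called higher and the median of -0.03 over all tested genes. The 33 other kinetochore and centromere genes had 4 called lower and none higher, with a median of -0.38. Of these 33, 26 had a lower mean and 7 a higher one, where 52.7% of all tested genes had a lower mean. Kntc1, the Rod subunit of the RZZ complex that recruits dynein to kinetochores, had 3953, 3099.6 and 3085 in WT and 1431, 1308 and 1057 in hnRNPL-deficient cells, so that its groups were far apart. Its log2 fold change of -1.42 (95% interval -1.76 to -1.07, limma adjusted p = 0.00123) exceeded in size that of every one of the 54. Spdl1, which encodes Spindly, the dynein adaptor that RZZ recruits, had 1518, 1425 and 1226 and 873, 814 and 709, with a log2 fold change of -0.80 (limma adjusted p = 0.00843). The remaining RZZ subunits had log2 fold changes of -0.05 (Zw10, limma adjusted p = 0.776) and -0.40 (Zwilch, limma adjusted p = 0.18). Cenpi, of the constitutive centromere network, fell by 0.72 on the log2 scale (limma adjusted p = 0.039). Oip5, which takes part in CENP-A loading, fell by 0.64 (limma adjusted p = 0.093).

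The 21 other spindle and cytokinesis genes had 4 called lower and none higher, with a median of -0.37. Dlgap5, a stabiliser of kinetochore microtubules, had 1611, 1221 and 1249 in WT and 777, 709.8 and 548 in hnRNPL-deficient cells, with no overlap and a log2 fold change of -1.01 (95% interval -1.40 to -0.62, limma adjusted p = 0.00879). The cytokinesis kinase Cit (-0.74), Kif24 (-0.61) and the abscission protein Cep55 (-0.77) also fell, at limma adjusted p-values of 0.0294, 0.0302 and 0.0815. Among the 15 other mitotic kinases and phosphatase genes none was called, with a median of -0.26. Pkmyt1, a relative of Wee1 that also inhibits Cdk1, and Melk had the smallest p-values, with log2 fold changes of -0.59 and -0.73 (limma adjusted p = 0.104 and 0.106).

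The APC/C and the cohesin and condensin II lists had medians nearer to 0. None of the 18 other APC/C genes was called and their median was -0.06. Anapc16 and Cdc16, both subunits of the ligase, had the smallest p-values there and went opposite ways, at 0.49 and -0.44 (limma adjusted p = 0.0277 and 0.039), both under 1.5-fold. The 14 cohesin and condensin II genes had a median of -0.09 and 1 call, for Mau2, a subunit of the cohesin loader, which rose from 2694, 3762 and 3529 in WT to 5542, 5786 and 5725 in hnRNPL-deficient cells (log2 fold change 0.79, limma adjusted p = 0.0082).

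The DREAM and MuvB list, 11 genes of the complexes that repress mitotic genes in resting cells and pass MuvB to B-Myb in cycling ones, had a median of -0.05, with 2 genes called higher and none lower, where 7.28% of all tested genes were called higher. Rbl2, which encodes the p130 pocket protein of DREAM, had 1830.1, 1719 and 1629.6 in WT and 3108, 3048 and 2959 in hnRNPL-deficient cells (log2 fold change 0.82, 95% interval 0.60 to 1.04, limma adjusted p = 0.00201). Tfdp2, a dimer partner of E2F proteins, had 594, 505 and 507 and 1238, 1059 and 1028 (log2 fold change 1.05, 95% interval 0.74 to 1.36, limma adjusted p = 0.00291). The groups did not overlap for either gene. Rbl1, which encodes the related p107, had a log2 fold change of -0.48 (limma adjusted p = 0.081), under the 1.5-fold minimum.

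The 18 S phase genes all had lower means, where 52.7% of all tested genes did, and 5 were called lower, where 4.08% of all tested genes were. Their median was -0.53. The 5 were Cdc6, the helicase loader (-0.85), Gins1 (-0.71) and Gins2 (-0.64) of the GINS complex, Uhrf1, which maintains DNA methylation (-0.62), and Mcm5 of the replicative helicase (-0.59). Their limma adjusted p-values were 0.0301, 0.0404, 0.0713, 0.06 and 0.0306. Over the 6 mitotic lists and the S phase list together, 13 genes were called lower. That count was 7 without WT replicate 1, 6 without hnRNPL-deficient replicate 3 and 23 without hnRNPL-deficient replicate 1.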

How the data were processed

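Poly(A) RNA from 6 cultures of activated splenic B cells, 3 per genotype, was sequenced. Per the labels and methods, the authors trimmed reads with fastp 0.23.1, aligned them to mm10 with STAR 2.7.9a, counted reads per GENCODE vM23 gene by strand with featureCounts, and deposited normalized counts (a signal: reads divided by a DESeq2 1.38.2 size factor). Every value was a whole multiple of the value of 1 read (100% within 0.001). The deposited table also holds the authors' own comparison (mean, log2 fold change, standard error, a test score, p-values), which was not used.

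Groups came from the sample labels. The 17640 genes whose mean normalized count reached 10 entered limma 3.58.1 (R 4.3.3) as log2(normalized count + 1), with a trended variance prior and two-sided tests, and called at an adjusted p under 0.1 and 1.5-fold. Fold changes are on that scale and understate changes of low genes. P-values measure the spread between these 3 and 3 samples. An exact permutation test of 3 against 3 cannot go below 0.1, so none is given. The fit was also run on simulated data. There each gene was drawn independently, without the library shifts that the members shared, so that run says nothing about them. Alternatives were other pseudocounts, filters, scalings, variance models, call rules, the replicate number as a block and each library left out, and, chosen after seeing the data, edgeR 4.0.16 and DESeq2 1.42.0 on recovered reads. The members and the gene lists were chosen with earlier results of these data known. Values per library are given for members called, and for the pair with the smallest p and the most abundant member of each role. They are also given for members opposite in sign to the median (Spc25 is added). From each other list, called genes (at most 5) or the pair with the smallest p are named. Some of those list genes are given by log2 fold change and adjusted p alone. Zw10, Zwilch and Rbl1 were named after their values were seen. Gene coordinates are from GENCODE vM21 on GRCm38.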

Additional observations from a re-analysis of the deposited data

How the results depend on the processing

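Mybl2 was called lower in all 22 alternatives. The count of members called lower was 6, and became 3 without a mean-variance trend, 3 at an adjusted p under 0.05, 1 at an adjusted p under 0.05 and 2-fold, and 1 to 10 with each library left out. Other list genes called lower numbered 13, and 23 at any fold, 2 at 2-fold and 6 to 23 with libraries left out, and those called higher 3, and 1 at 2-fold. Over all genes, 719 were lower and 1284 higher, against 1406 lower at any fold, 216 and 610 at 2-fold, and 478 to 696 and 830 to 1111 with libraries left out. With the replicate number as a block (replicate block), 12 members and 20 other list genes were called lower. Under that block, 39 members and 6730 of the 17640 tested genes had an unadjusted limma p under 0.05, in either direction. Without it, 15 members and 4830 genes did. The labels do not say whether the replicate numbers pair the samples, and the values do not settle it. Correlations of same-numbered deviations were 0.429, 0.320 and 0.0663, each the highest for its hnRNPL-deficient library. Those of unlike numbers ran from -0.458 to 0.305. WT replicate 3 correlated best with hnRNPL-deficient replicate 2 (0.305). The cause of these moves was not tested, except that a stricter rule calls fewer genes by construction.

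Signs turned for genes near 0. With 1 library left out they also turned for Foxm1, Kif2c and Ube2c, at -0.26, -0.28 and -0.22 in the main fit. Under equal totals Bub3 was 0.026 and Spc25 0.052, under quantile normalization Ccnb2 was -0.0083, Bub3 0.097 and Cenpa -0.10, and under edgeR Spc25 was 0.024. Under edgeR without hnRNPL-deficient replicate 2, Bub3 was 0.047, Spc25 0.071 and Cenpa -0.00011. With each library left out, log2 fold changes ran -0.11 to 0.36 for Ccnb2, -0.14 to 0.29 for Cenpa, -0.17 to 0.20 for Spc25, -0.12 to 0.093 for Bub3, -0.18 to 0.11 for Cdc25c, -0.40 to 0.13 for Ube2c, -0.24 to 0.11 for Kif18a, -0.48 to 0.059 for Foxm1 and -0.45 to 0.063 for Kif2c. The median of the 54 kept its sign throughout, from -0.57 to -0.21. Where 1 library was left out, an arm held 2 samples. The members had at least 155 reads in every library, and the effect of depth on their fold changes was not tested.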
